A study of Rattus norvegicus with 16 samples.

Results

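The genes described here write, read or remove ADP-ribose on proteins: the ADP-ribosyltransferases Parp1, Parp2, Parp3, Parp4, Parp9 and Parp14, the tankyrases Tnks and Tnks2, and the hydrolases Parg and Macrod1. Members were the probes that carry 1 of these 10 gene names in the array files, which held 9 of the genes in 10 probes, out of 20308 genes and unnamed probes tested. Parp4 had no probe under its own name. It was named by 3 probes through their description field, so its values stand beside the others. Parp4 is kept out of the counts of the 9 genes found by name. It is included in the promoter windows and wherever 10 genes are examined, such as pairs of genes. A gene read by several probes is represented by the one of highest average signal.

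RNA came from ovaries of female rats of the Jcl:SD stock (Sprague-Dawley), and each of the 16 samples was run on a single-colour Agilent array. There were 4 BRCA1+/- ovaries with olaparib, 4 BRCA1+/- ovaries with vehicle, 4 wild-type ovaries with olaparib and 4 wild-type ovaries with vehicle. Olaparib was given under the skin once a day at 50 mg/kg for 14 days to rats that were 3 weeks old at the start, and tissue was taken 24 h after the final dose. The labels state neither what the vehicle was and how its animals were dosed, nor which mutation of Brca1 the BRCA1+/- rats carry. The design asks whether the drug changed the ovary's RNA in each genotype, whether the genotypes differed, and whether the effect of the drug differed between them.

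ADP-ribosyltransferases take ADP-ribose from NAD+ and attach it to proteins. PARP1 and PARP2 bind broken DNA and build chains of poly(ADP-ribose) that recruit repair factors, and olaparib blocks their catalytic site. Cells short of BRCA1, a protein of homologous recombination repair, depend more on this route, which is the basis of the use of PARP inhibitors in ovarian cancer. PARG cuts the chains, and macrodomain enzymes such as MACROD1 take off the last ADP-ribose. The arrays measured RNA, not enzyme activity or poly(ADP-ribose). In whole ovaries, fewer cells of a type and less RNA per cell cannot be told apart.

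The probes below are those on which the results turn. They are 60-base oligonucleotides, with the positions that the array files give on rat build rn4, and they are printed in lower case with no part marked. They show which stretch of each gene was read, and for Tnks2 and Parp4 that different stretches were read. The second Tnks2 probe lies over 2662 bases of genome, so it is split in the genome, while the first lies in 1 block of 60 bases. No rn4 gene model was used here, so exons and untranslated regions are not assigned.
Parp1, rn4 chr13:96341303-96341362: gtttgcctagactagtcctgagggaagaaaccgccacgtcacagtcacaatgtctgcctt
Parp9, rn4 chr11:66622690-66622749: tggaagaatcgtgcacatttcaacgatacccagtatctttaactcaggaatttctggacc
Parp14, rn4 chr11:66768795-66768854: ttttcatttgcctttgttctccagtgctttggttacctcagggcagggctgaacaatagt
Macrod1, rn4 chr1:209870894-209870951: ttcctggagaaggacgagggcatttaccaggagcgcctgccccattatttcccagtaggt
Tnks, rn4 chr16:61095847-61095906: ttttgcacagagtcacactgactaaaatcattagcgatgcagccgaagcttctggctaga
Tnks2 probe 1, rn4 chr1:241163908-241163967: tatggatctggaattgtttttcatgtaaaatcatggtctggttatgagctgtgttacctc
Tnks2 probe 2, rn4 chr1:241153392-241156053: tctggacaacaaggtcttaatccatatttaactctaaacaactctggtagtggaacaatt
Parp4 probe 1, rn4 chr15:35653270-35653329: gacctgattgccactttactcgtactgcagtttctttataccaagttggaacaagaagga
Parp4 probe 3, rn4 chr15:35646828-35646886: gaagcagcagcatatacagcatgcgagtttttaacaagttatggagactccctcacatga

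Values are log2 signals as the authors scaled them, on which 0 is about the 75th percentile of an array and a step of 1 is a factor of 2. Each of the 10 representative probes was well above background on all 16 arrays, and no spot was saturated. A level of 1 probe cannot be set against that of another, so only differences between samples are compared. Of 13 genes that mark ovarian cells, 11 were above background on every array. Brca1 averaged 0.67 lower on the log2 scale in BRCA1+/- vehicle ovaries than in wild-type vehicle ovaries (95% interval -1.26 to -0.09), with a limma adjusted p of 0.861. With olaparib, BRCA1+/- differed from wild-type in Brca1 by -0.16 (95% interval -0.74 to 0.42, limma unadjusted p = 0.569). The interval thus excluded 0 only with vehicle. Replicates 1 and 2 of every group shared a slide, and replicates 3 and 4 shared the other. A list of genes of oviduct and ciliated epithelium, a tissue next to the ovary, was high on 6 arrays: BRCA1+/- olaparib 3 and 4, BRCA1+/- vehicle 3 and 4, and wild-type olaparib 1 and 3. No wild-type vehicle array was among them.

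Across the 5 comparisons, limma called no gene at an adjusted p under 0.05, on the members or on the array (percent called 0 in each comparison). At an unadjusted p under 0.05 there were 240 genes for olaparib in BRCA1+/- rats (1.18%), 889 for olaparib in wild-type rats (4.38%), 188 for BRCA1+/- against wild-type with olaparib (0.926%), 1115 for the genotypes with vehicle (5.49%) and 699 for the interaction (3.44%). The interaction is the olaparib difference in BRCA1+/- rats minus that in wild-type rats. For none of the 10 genes did 2 groups of 4 arrays lie wholly apart in any of the 4 group comparisons. Among all genes tested such a separation occurred in 1.11% for olaparib in BRCA1+/- rats, 1.16% for olaparib in wild-type rats, 0.611% for the genotypes with olaparib and 3.44% for the genotypes with vehicle.

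**Figure D1:**
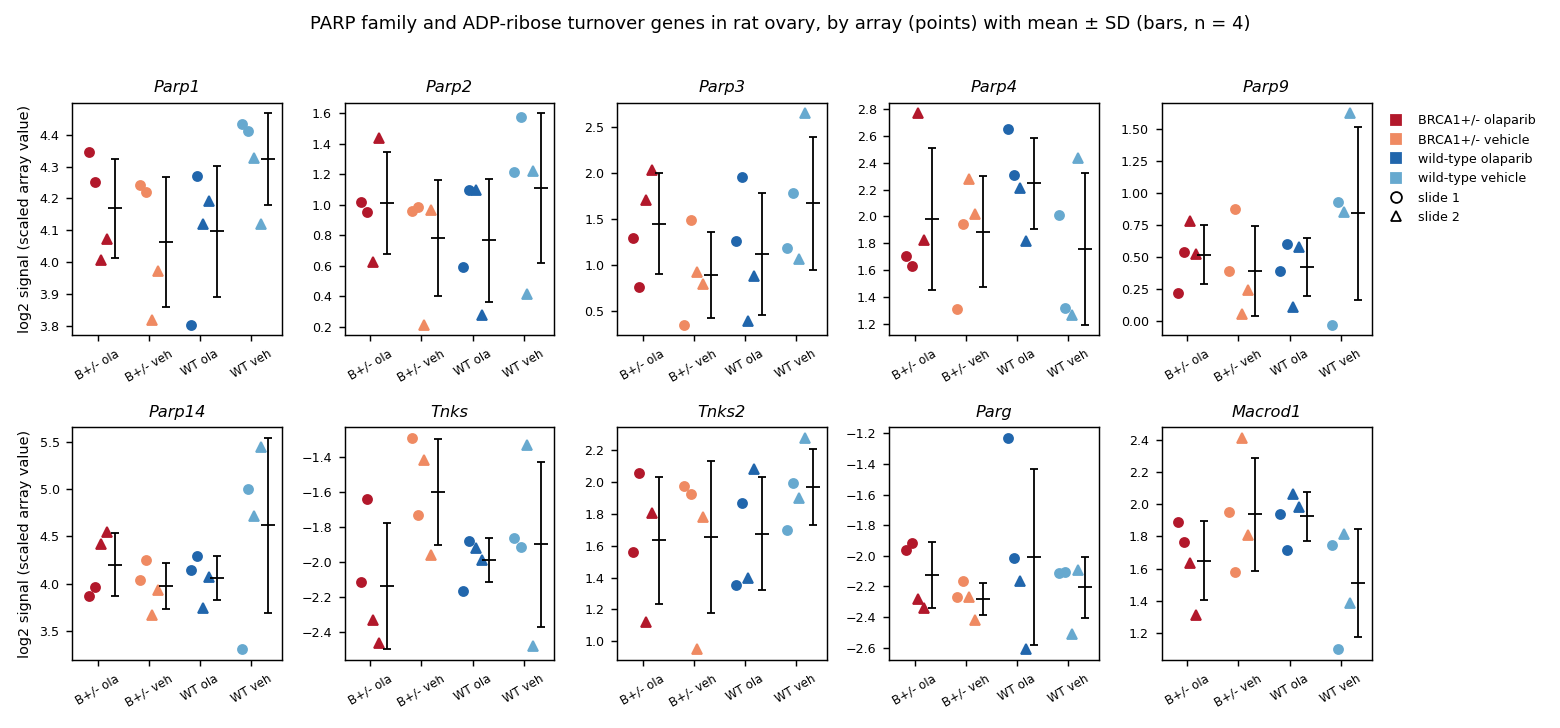
Log2 signal (y axis, in log2 units, with a separate range in each panel) of each gene by group (x axis: BRCA1+/- olaparib, BRCA1+/- vehicle, wild-type olaparib, wild-type vehicle). Each point is an array, circles for slide 1 and triangles for slide 2, and bars give mean ± SD of 4 arrays; the groups overlap in every panel.

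The DNA-damage PARPs come first. Parp1 varied least of the members: its log2 signal lay between 3.80 and 4.43 over all 16 arrays, and its SD within groups was 0.18, against a median of 0.43 over all genes tested. Its deposited value on each array stands for 10 spots, while every other member was read from 1 spot. How the deposited values summarise the 10 spots was not established here. The part of the number of spots in its narrow spread was not tested. Parp1 was 4.34, 4.25, 4.01 and 4.07 in BRCA1+/- olaparib ovaries, against 4.24, 4.22, 3.82 and 3.97 in BRCA1+/- vehicle ovaries. In wild-type rats it was 3.80, 4.27, 4.12 and 4.19 with olaparib, against 4.43, 4.41, 4.33 and 4.12 with vehicle. The groups overlapped in both genotypes, and the lowest values stood on wild-type olaparib array 1 and BRCA1+/- vehicle array 3. Olaparib differed from vehicle by 0.11 in BRCA1+/- rats (95% interval -0.23 to 0.44) and by -0.23 in wild-type rats (-0.56 to 0.11). Neither difference passed the test (limma adjusted p = 1.00 and 0.959). Between genotypes the differences were 0.07 with olaparib and -0.26 with vehicle (95% interval -0.60 to 0.08, higher in 2 of 16 pairs of arrays), and the difference with vehicle had a limma adjusted p of 0.861.

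Parp1 also moved with the oviduct list. The 3 arrays with the highest score of that list, BRCA1+/- vehicle 3, wild-type olaparib 1 and wild-type olaparib 3, had scores of 3.45, 3.17 and 2.90 and Parp1 signals of 3.82, 3.80 and 4.12. The 6 high-score arrays had Parp1 signals from 3.80 to 4.12, and the other 10 arrays from 4.12 to 4.43. Since the arrays fall into these 2 sets, no correlation over all 16 is given; within the 10 it was 0.16 and within the 6 it was -0.52 (Pearson). The first probe of Tnks2, a tankyrase described below, lay between 0.95 and 1.81 on the 6 arrays and between 1.56 and 2.28 on the other 10. The second Tnks2 probe lay between -1.35 and 0.02 on the 6 and between -1.12 and 0.32 on the other 10. Its 0.02 stood on BRCA1+/- vehicle array 3, where the first probe was lowest. Without the 6 arrays, the Parp1 difference was 0.07 for olaparib in BRCA1+/- rats, -0.09 for olaparib in wild-type rats and -0.09 for BRCA1+/- against wild-type with vehicle. In that setting both BRCA1+/- groups keep 2 arrays each, all from slide 1.

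Parp2, the closest relative of Parp1 in DNA repair, varied more. It was 1.02, 0.95, 0.62 and 1.44 in BRCA1+/- olaparib ovaries, against 0.96, 0.99, 0.21 and 0.97 in BRCA1+/- vehicle ovaries. The wild-type ovaries had 0.59, 1.1, 1.1 and 0.28 with olaparib, against 1.22, 1.58, 0.42 and 1.22 with vehicle. BRCA1+/- vehicle array 3 and wild-type vehicle array 3 stood well under the rest of their groups, and the groups overlapped in both genotypes. Its olaparib difference was 0.23 in BRCA1+/- rats (95% interval -0.38 to 0.83) and -0.34 in wild-type rats (-0.95 to 0.27). Both stayed within the spread between arrays (limma adjusted p = 1.00 and 0.967). Parp2 followed the score of a list of proliferating cell genes (Mki67, Top2a, Mcm3 and others) across the 16 arrays, with a Pearson r of 0.82 (permutation p = 0.00013, adjusted p = 0.0058 over 90 relations of 10 genes with 9 lists) and a Spearman rho of 0.79 (permutation p = 0.00044, adjusted p = 0.02). The r was 0.75 without the 2 arrays farthest from the median score, 0.78 on slide 1 and 0.80 on slide 2. All 8 genes of that list were higher with olaparib in BRCA1+/- rats and all 8 were lower with olaparib in wild-type rats, none of them called, and Parp2 had the same directions.

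Parp3, which acts at DNA double-strand breaks, had the widest spread of the members, with an SD within groups of 0.61. Its log2 signal was 1.30, 0.77, 1.71 and 2.03 in BRCA1+/- olaparib ovaries, against 0.35, 1.48, 0.93 and 0.79 in BRCA1+/- vehicle ovaries. In wild-type ovaries it was 1.26, 1.96, 0.39 and 0.89 with olaparib, against 1.19, 1.79, 1.07 and 2.64 with vehicle. Wild-type vehicle array 4 held the highest value of all, and the groups overlapped throughout. The olaparib difference was 0.56 in BRCA1+/- rats and -0.55 in wild-type rats. The interaction was 1.11 (95% interval -0.12 to 2.34, limma unadjusted p = 0.0729, adjusted p = 0.967). Exchanging olaparib and vehicle labels within each genotype gave a permutation p of 0.0808. On slide 1 this interaction was -0.01 and on slide 2 it was 2.23, so that it was seen on 1 of the 2 slides. Without the 6 arrays of high oviduct score the interaction was 0.36, a setting that keeps only slide 1 arrays in both BRCA1+/- groups. Parp3 ran against the score of the ovary list (Pearson r = -0.77, permutation p = 0.00053, adjusted p = 0.012 over the 90 relations; Spearman rho = -0.65, permutation p = 0.0085, adjusted p = 0.11). That r was -0.56 without the 2 arrays farthest from the median score, -0.69 on slide 1 and -0.83 on slide 2.

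**Figure D2:**
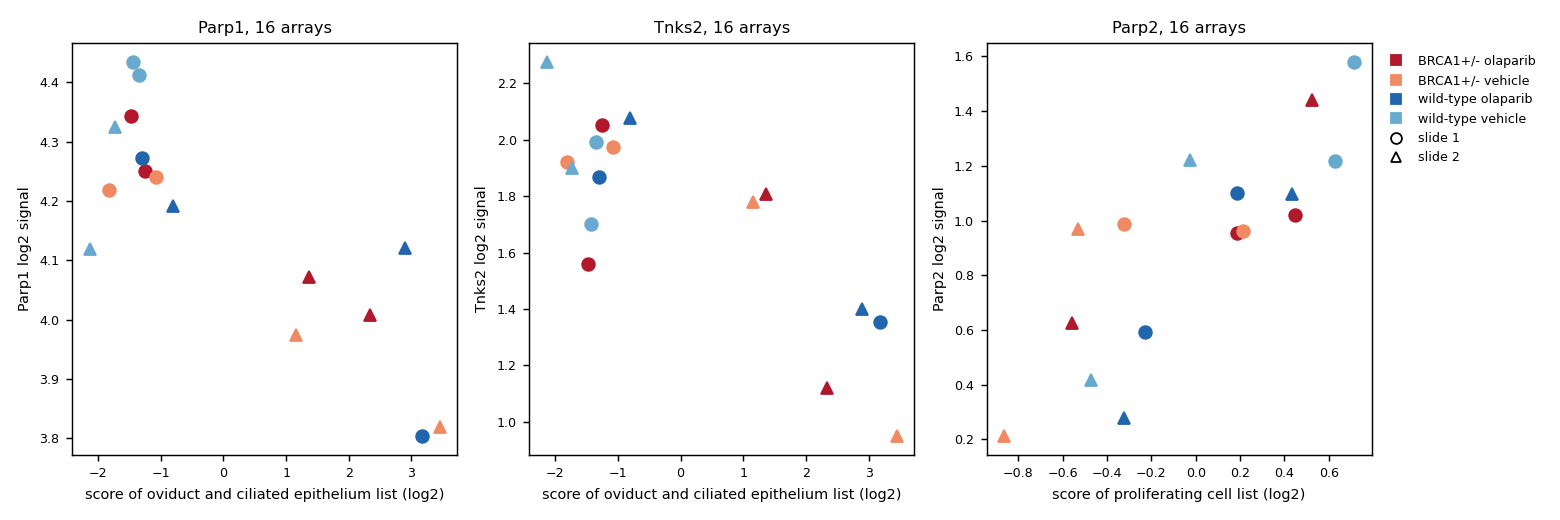
Log2 signal (y axes) of Parp1 and Tnks2 against the score of the oviduct and ciliated epithelium list, and of Parp2 against the score of the proliferating cell list (x axes, mean log2 of the list's genes after centring each over the 16 arrays). Each point is an array, coloured by group and shaped by slide; Parp1 was at most 4.12 on the 6 arrays with an oviduct score above 0, and Parp2 followed the proliferating cell score.

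Parp9 and Parp14 are macrodomain PARPs that are known as targets of interferon signalling. PARP14 attaches single ADP-ribose units, and PARP9 works as a pair with the ubiquitin ligase DTX3L. In the RefSeq table for GRCr8 the genes Parp9, Dtx3l and Parp14 lie near each other on chromosome 11, with Parp9 and Dtx3l overlapping on opposite strands. Promoter windows from RefSeq on GRCr8, of 250 bases before the annotated start and 50 after it, are shown because these neighbours were compared below and because Parp4 held the motif too. Capitals mark 2 copies of GAAA with any 2 bases between them, the core of an interferon-stimulated response element, searched on both strands, with overlapping matches joined.
Parp14, GRCr8 chr11:78407884-78408183, forward strand: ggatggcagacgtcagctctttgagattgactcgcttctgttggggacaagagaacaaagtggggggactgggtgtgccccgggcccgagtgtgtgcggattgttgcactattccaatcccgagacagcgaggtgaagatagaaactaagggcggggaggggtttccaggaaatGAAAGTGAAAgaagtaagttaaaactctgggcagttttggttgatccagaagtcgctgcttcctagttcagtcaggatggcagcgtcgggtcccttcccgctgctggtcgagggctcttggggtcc
Dtx3l, GRCr8 chr11:78319975-78320274, forward strand: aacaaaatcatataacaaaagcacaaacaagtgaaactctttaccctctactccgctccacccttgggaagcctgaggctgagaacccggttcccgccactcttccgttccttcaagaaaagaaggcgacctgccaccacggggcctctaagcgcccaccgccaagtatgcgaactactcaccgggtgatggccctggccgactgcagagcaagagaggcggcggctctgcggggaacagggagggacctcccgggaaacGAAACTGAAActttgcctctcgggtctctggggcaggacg
Parp9, GRCr8 chr11:78318962-78319261, reverse strand: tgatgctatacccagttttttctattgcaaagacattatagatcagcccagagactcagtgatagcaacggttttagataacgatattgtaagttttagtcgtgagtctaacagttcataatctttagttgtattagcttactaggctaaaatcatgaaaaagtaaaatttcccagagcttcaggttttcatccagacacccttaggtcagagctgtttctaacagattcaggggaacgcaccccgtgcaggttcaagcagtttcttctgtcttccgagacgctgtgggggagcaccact
Parp4, GRCr8 chr15:34805953-34806252, forward strand: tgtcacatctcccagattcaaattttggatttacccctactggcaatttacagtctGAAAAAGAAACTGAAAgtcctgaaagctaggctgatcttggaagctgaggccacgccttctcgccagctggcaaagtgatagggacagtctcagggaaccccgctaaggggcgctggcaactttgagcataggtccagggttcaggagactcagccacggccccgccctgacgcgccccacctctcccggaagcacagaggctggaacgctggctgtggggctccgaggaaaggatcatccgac

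The motif was found in 2 of the 9 member windows available, those of Parp14 and Parp4, and in the window of Dtx3l. Over all 33469 promoter windows of the table, 3.92% held it. In the Parp14 window the match began 76 bases before the annotated start, and in the Dtx3l window it began 10 bases after the start. The Parp9 window held no match in these letters; its annotated start is not the one at which Parp9 overlaps Dtx3l. A match is a description of letters and not of binding. Windows for Parp1, Parp2, Parp3, Tnks2, Parg and Macrod1 held none either, and Tnks had no window here.

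Parp14 was 3.87, 3.96, 4.42 and 4.54 in BRCA1+/- olaparib ovaries, against 4.04, 4.25, 3.67 and 3.93 in BRCA1+/- vehicle ovaries. In wild-type rats it was 4.14, 4.29, 3.74 and 4.07 with olaparib, against 3.31, 5.0, 4.72 and 5.44 with vehicle. The wild-type vehicle group held both the lowest value (array 1) and the 3 highest values of all 16 arrays. Parp9 gave 0.22, 0.54, 0.78 and 0.52 in BRCA1+/- olaparib ovaries, against 0.39, 0.87, 0.05 and 0.24 in BRCA1+/- vehicle ovaries. The wild-type values of Parp9 were 0.39, 0.60, 0.11 and 0.57 with olaparib, against -0.03, 0.93, 0.85 and 1.63 with vehicle. Again the lowest and the highest array both belonged to the wild-type vehicle group, as arrays 1 and 4. The SD of this group was 0.92 for Parp14 and 0.68 for Parp9, against 0.23 for both in wild-type olaparib ovaries.

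Olaparib in wild-type rats differed from vehicle by -0.56 for Parp14 (95% interval -1.31 to 0.20) and by -0.42 for Parp9 (-1.04 to 0.19). The difference was 0.07 for Parp14 and 0.05 for Parp9 on slide 1, and -1.18 and -0.90 on slide 2. In BRCA1+/- rats the olaparib difference was 0.23 for Parp14 and 0.13 for Parp9. Without the 6 arrays of high oviduct score it was -0.23 for Parp14 and -0.25 for Parp9. That setting keeps only slide 1 arrays in both BRCA1+/- groups, so these are also the slide 1 values. On slide 2 the difference was 0.68 for Parp14 and 0.51 for Parp9. Oviduct score and slide cannot be told apart in this change of direction. BRCA1+/- against wild-type with vehicle gave -0.64 for Parp14 (95% interval -1.40 to 0.11) and -0.45 for Parp9. This comparison and that of olaparib in wild-type rats share the wild-type vehicle arrays. No difference of either gene passed the test, with limma adjusted p-values of 0.861 or more.

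Parp9 and Parp14 rose and fell together from array to array. Their Pearson r over 16 arrays was 0.93 (permutation p = 1e-05, the smallest that 100000 resamples can give, adjusted p = 0.00045 over 45 pairs of the 10 genes) and their Spearman rho was 0.91 (permutation p = 3e-05, adjusted p = 0.0013). The r was 0.86 without the 2 arrays farthest from the median of Parp9, 0.89 on slide 1 and 0.96 on slide 2. It was 0.95 on the 10 arrays of low and 0.92 on the 6 arrays of high oviduct score. After group means were subtracted it was 0.92, and Parp14 was then the nearest of 15244 named genes to Parp9, while Parp9 came second to Arhgef10 (0.92) for Parp14. Dtx3l, which lies between them, had an r after subtracting group means of -0.31 with Parp9 and -0.19 with Parp14 over 16 arrays. The sign of both rests on 1 array: the log2 signal of Dtx3l was -2.01 on wild-type vehicle array 4, where Parp9 and Parp14 were highest, and 0.57 to 2.57 on the other 15 arrays. Without that array, a setting chosen after seeing the data, the r of Dtx3l was 0.57 with Parp9 and 0.61 with Parp14, and that of Parp9 with Parp14 was 0.88.

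**Figure D3:**
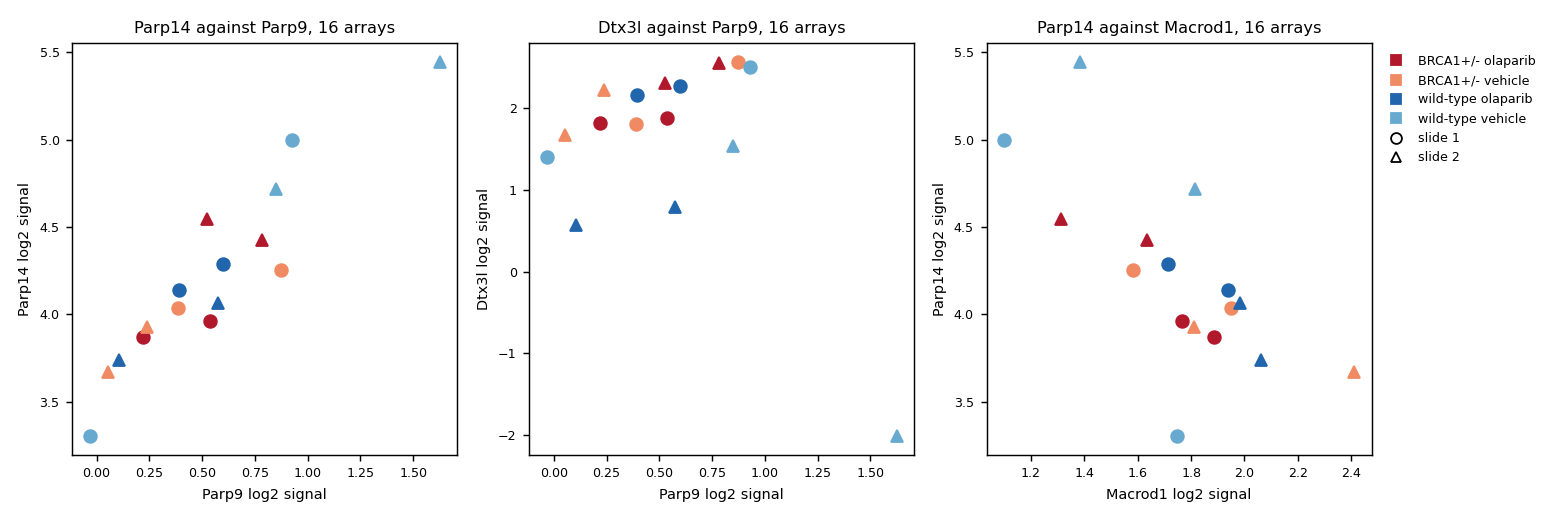
Log2 signal of Parp14 against Parp9, Dtx3l against Parp9, and Parp14 against Macrod1 (both axes in log2 units). Each point is an array, coloured by group and shaped by slide; Parp9 and Parp14 rise together (r 0.93), and Dtx3l is lowest, at -2.01, on the array with the highest Parp9.

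The tankyrases build poly(ADP-ribose) on partners such as AXIN in WNT signalling and the telomere protein TRF1. Tnks was -2.12, -1.64, -2.34 and -2.47 in BRCA1+/- olaparib ovaries, against -1.29, -1.74, -1.42 and -1.96 in BRCA1+/- vehicle ovaries. In wild-type ovaries it was -2.17, -1.88, -1.92 and -1.99 with olaparib, against -1.87, -1.92, -1.33 and -2.48 with vehicle. In BRCA1+/- rats 2 of the 16 pairs of arrays were higher with olaparib, and the groups overlapped at BRCA1+/- olaparib array 2. The olaparib difference there was -0.54 (95% interval -1.06 to -0.02, a fold of 0.689), with a limma unadjusted p of 0.0445 and an adjusted p of 1.00, and an exact permutation p of 0.0857. It was -0.36 on slide 1 and -0.71 on slide 2. Leaving out the 6 arrays of high oviduct score keeps the same slide 1 arrays in both BRCA1+/- groups, so that setting gives no separate value. The same difference in wild-type rats was -0.09, and the interaction was -0.45 (95% interval -1.19 to 0.29).

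The first Tnks2 probe was 1.56, 2.05, 1.12 and 1.81 in BRCA1+/- olaparib ovaries, against 1.97, 1.92, 0.95 and 1.78 in BRCA1+/- vehicle ovaries. In wild-type ovaries it gave 1.36, 1.87, 1.40 and 2.08 with olaparib, against 1.70, 1.99, 1.90 and 2.28 with vehicle. Its lowest values stood on BRCA1+/- vehicle array 3 and BRCA1+/- olaparib array 3, both of high oviduct score. The second Tnks2 probe gave -1.12, -0.49, -1.30 and -1.35 in BRCA1+/- olaparib ovaries, against -0.12, -0.53, 0.02 and -0.63 in BRCA1+/- vehicle ovaries. For olaparib in BRCA1+/- rats, the first probe showed -0.02 (95% interval -0.59 to 0.55) and the second -0.75 (-1.44 to -0.07, limma unadjusted p = 0.0340). The probes of this gene thus disagree, and their Pearson r over 16 arrays was 0.27 (permutation p = 0.32; adjusted p = 0.32 over 4 probe pairs; Spearman rho = 0.44, permutation p = 0.091). That r was 0.81 on slide 1 and 0.16 on slide 2, and 0.54 without the 2 arrays farthest from the median of the first probe.

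Parp4, the PARP of vault particles, was read by 3 probes that differed too. The first probe was 1.71, 1.63, 2.77 and 1.82 in BRCA1+/- olaparib ovaries, against 1.31, 1.94, 2.28 and 2.02 in BRCA1+/- vehicle ovaries. Wild-type ovaries had 2.65, 2.31, 2.21 and 1.82 with olaparib, against 2.01, 1.31, 1.27 and 2.44 with vehicle. Olaparib in wild-type rats differed by 0.49 (95% interval -0.20 to 1.18, higher in 12 of 16 pairs, limma adjusted p = 0.959). On BRCA1+/- olaparib array 3 the first and second probes gave 2.77 and 1.27, the highest of their 16 arrays, and probe 3 gave -7.76 and was not well above background there. The first and second probes had a Pearson r of 0.55 (permutation p = 0.028, adjusted p = 0.056), and probes 2 and 3 one of -0.56 (permutation p = 0.015, adjusted p = 0.056), over 16 arrays. Their Spearman rho was 0.61 (permutation p = 0.014) and -0.69 (permutation p = 0.0037). Without the 2 arrays farthest from the median of the first-named probe of each pair, r was 0.54 and -0.61. For probes 2 and 3 these 2 arrays do not include BRCA1+/- olaparib array 3. The -0.61 thus still holds the -7.76 of probe 3, and r without that array was not computed.

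**Figure D4:**
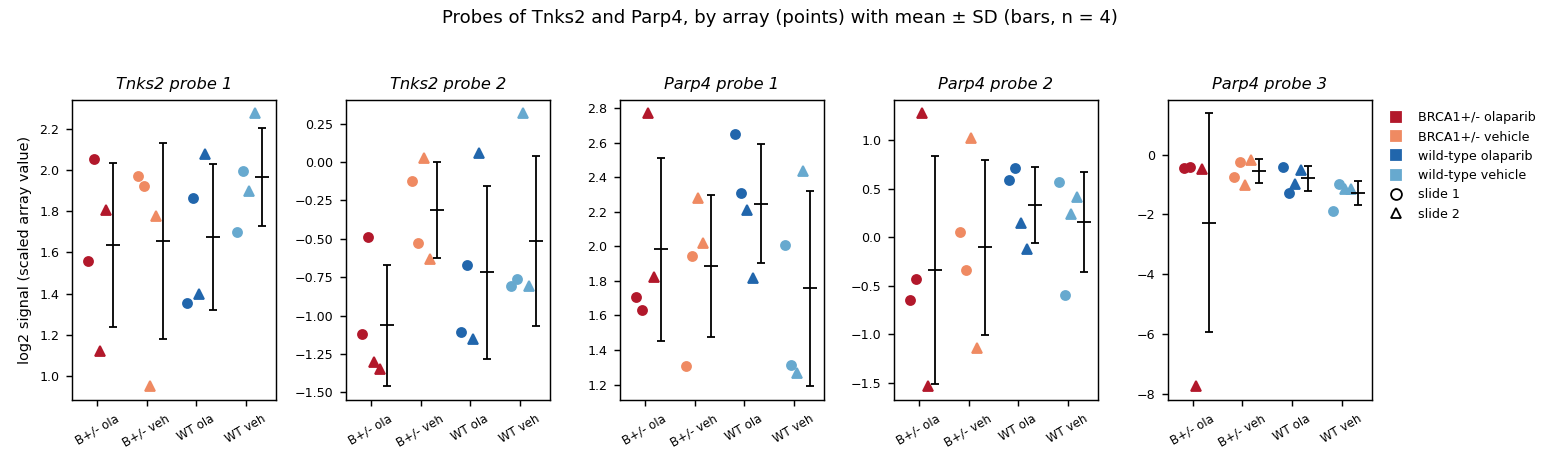
Log2 signal (y axis, in log2 units) of both Tnks2 probes and all 3 Parp4 probes by group (x axis), with points for arrays and bars for mean ± SD of 4. The second Tnks2 probe averages -1.06 in BRCA1+/- olaparib and -0.31 in BRCA1+/- vehicle ovaries, the first 1.64 and 1.66, and Parp4 probe 3 is at -7.76 on 1 array.

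The genes that remove ADP-ribose come last. Macrod1, the mono-ADP-ribosyl hydrolase, was 1.89, 1.77, 1.64 and 1.31 in BRCA1+/- olaparib ovaries, against 1.95, 1.58, 2.41 and 1.81 in BRCA1+/- vehicle ovaries. In wild-type rats it was 1.94, 1.71, 2.06 and 1.98 with olaparib, against 1.75, 1.1, 1.82 and 1.38 with vehicle. With olaparib it lay lower in BRCA1+/- rats and higher in wild-type rats than with vehicle, with overlap in both. The olaparib difference was -0.29 in BRCA1+/- rats (95% interval -0.74 to 0.16) and 0.41 in wild-type rats (-0.04 to 0.87, higher in 14 of 16 pairs). The interaction was -0.70 (95% interval -1.34 to -0.06), with a limma unadjusted p of 0.0340 and an adjusted p of 0.967. Exchanging olaparib and vehicle labels within each genotype, over 4900 arrangements, gave a permutation p of 0.0229. The interaction was -0.34 on slide 1 and -1.06 on slide 2, and -0.28 without the 6 arrays of high oviduct score. That setting keeps only slide 1 arrays in both BRCA1+/- groups, so oviduct score and slide cannot be told apart there. BRCA1+/- against wild-type differed by -0.27 with olaparib and by 0.43 with vehicle (95% interval -0.03 to 0.88, limma adjusted p = 0.861).

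Macrod1 ran against several of the transferases from array to array. Its Pearson r was -0.74 with Parp2 (permutation p = 0.00088, adjusted p = 0.02 over the 45 pairs), -0.72 with Parp3 (permutation p = 0.0019, adjusted p = 0.021), -0.70 with Parp14 (permutation p = 0.003, adjusted p = 0.023) and -0.65 with Parp9 (permutation p = 0.0074, adjusted p = 0.037). The Spearman rho values were -0.69, -0.78, -0.67 and -0.64, with adjusted p-values of 0.052, 0.016, 0.052 and 0.064. Without the 2 farthest arrays r was -0.63, -0.70, -0.52 and -0.72, and it was -0.59 or lower on each slide for all 4 genes. Of the 45 pairs, 9 had an adjusted p under 0.05 by Pearson r. Besides Parp9 with Parp14 and these 4, they were Parp3 with Parp14, Parp3 with Parp9, Parp3 with Tnks and Parp1 with Parp4. The Spearman adjusted permutation p-values of these last pairs were 0.052, 0.12, 0.12 and 0.064. By Spearman rho only Parp9 with Parp14 and Parp3 with Macrod1 had an adjusted p under 0.05. The r of Parp1 with Parp4 was -0.66 over 16 arrays, and -0.42 and -0.43 within the sets of low and high oviduct score. Macrod1 also ran against the score of the macrophage list (Pearson r = -0.70, permutation p = 0.0031, adjusted p = 0.047 over 90 relations; Spearman rho = -0.86, permutation p = 5e-05, adjusted p = 0.0045). That r was -0.68 without the 2 farthest arrays, -0.81 on slide 1 and -0.63 on slide 2. With the same macrophage score the r was 0.65 for Parp3, 0.52 for Parp14, 0.50 for Parp9 and 0.36 for Parp2. Their adjusted permutation p-values were 0.072, 0.27, 0.3 and 0.55. The part of macrophage content in the relations of Macrod1 with these genes was not tested.

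Parg, the main poly(ADP-ribose) glycohydrolase, was -1.96, -1.92, -2.28 and -2.34 in BRCA1+/- olaparib ovaries, against -2.27, -2.17, -2.27 and -2.42 in BRCA1+/- vehicle ovaries. Its wild-type values were -1.23, -2.01, -2.17 and -2.61 with olaparib, against -2.11, -2.11, -2.51 and -2.10 with vehicle. Wild-type olaparib array 1 stood apart as the highest of the 16, and array 4 of the same group was the lowest. The olaparib difference was 0.16 in BRCA1+/- rats (95% interval -0.35 to 0.67) and 0.20 in wild-type rats (-0.31 to 0.71), and the wild-type value was -0.11 without the arrays of high oviduct score. Parg had a Pearson r of 0.72 with the adipocyte score (permutation p = 0.003, adjusted p = 0.047 over 90 relations), but a Spearman rho of 0.29 (permutation p = 0.27) and an r of 0.27 without the 2 arrays farthest from the median, so the relation rests on those arrays. Parg also averaged 0.37 lower on slide 2 than on slide 1 (95% interval of slide 2 minus slide 1 -0.66 to -0.07). That slide difference did not pass the test (limma adjusted p = 0.127).

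By comparison, 6 of the 9 genes found by name were higher and 3 lower with olaparib in BRCA1+/- rats, with a median difference of 0.13, where 52.9% of all genes were higher with a median of 0.02. In wild-type rats 2 were higher and 7 lower with olaparib, with a median of -0.29, where 39.1% of all genes were higher with a median of -0.07. Only Macrod1 and Parg were higher there. Between the genotypes, 5 of 9 were higher in BRCA1+/- rats with olaparib (53.1% of all genes) and 2 of 9 with vehicle (42.1% of all genes), which were Tnks and Macrod1. The interaction was above 0 for 6 of 9 (57.9% of all genes). At an unadjusted p under 0.05 the members counted 1 for olaparib in BRCA1+/- rats (Tnks), 1 for the interaction (Macrod1) and 0 in each of the other comparisons. All these counts share the wild-type vehicle or another group, and no member passed the test in any direction.

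**Figure D5:**
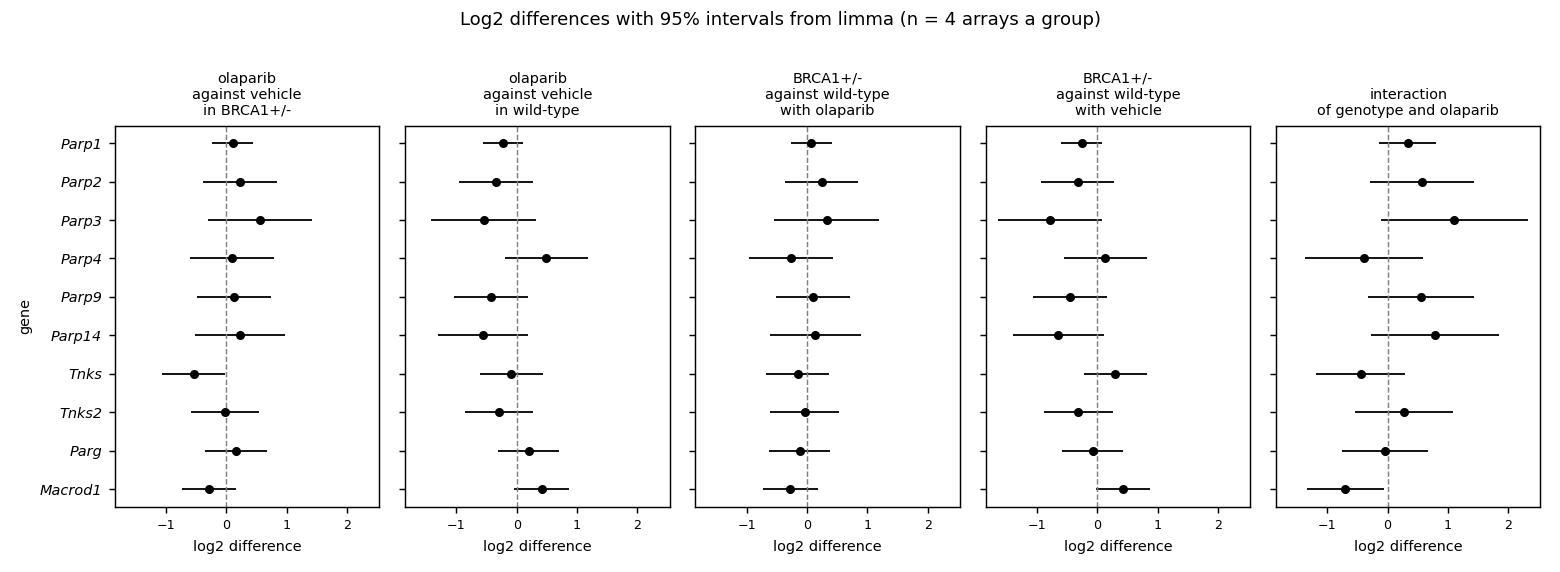
Log2 differences (x axis, in log2 units) of the 10 genes (rows) in the 5 comparisons (panels), with points for limma estimates and bars for 95% intervals. The intervals of Tnks for olaparib in BRCA1+/- rats and of Macrod1 for the interaction exclude 0 before adjustment, and Parp1, read from 10 spots an array, has the narrowest intervals.

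In the 2 comparisons against the wild-type vehicle arrays, markers of other tissues and cell types differed between the groups, none of them called. All 11 tested genes of the oviduct list were higher with olaparib in wild-type rats (median difference 2.57) and in BRCA1+/- against wild-type with vehicle (median 2.23). Their summed linear signal ranged from 8.09 to 186 on wild-type olaparib arrays and from 10.4 to 224 on BRCA1+/- vehicle arrays, against 4.17 to 8.41 on wild-type vehicle arrays. Of the 11 oviduct genes on the array, 8 were above background on all 16 arrays, and the others on at least 9. With the 6 arrays of high score left out, limma again called no gene in any comparison, and Tnks2 differed by 0.0046 for olaparib in wild-type rats, against -0.29 with all arrays. Of 6 tested adipocyte genes, 5 were higher with olaparib in wild-type rats (median 2.43) and 4 in BRCA1+/- against wild-type with vehicle (median 0.99). With olaparib in wild-type rats 3 of them had a limma unadjusted p under 0.05, against 4.38% of all genes. Of the 8 adipocyte genes on the array, 3 were above background on all 16 arrays. Lep, which had the smallest of these p-values, was above background on 5 arrays, so its difference rests partly on dim signals. The summed linear signal of the adipocyte list ranged from 3.36 to 107 on wild-type olaparib arrays and from 5.95 to 18.7 on BRCA1+/- vehicle arrays, against 5.24 to 8.37 on wild-type vehicle arrays. For the genotypes with vehicle, all 8 proliferating cell genes were lower in BRCA1+/- rats (median -0.63), and all 6 tested T and NK cell genes (median 0.46) and all 5 red blood cell genes (median 0.41) were higher. The part of these tissues and cells in the other differences was not tested.

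Other genes of ADP-ribosylation were given by a list of 25, including further PARPs, cofactors, readers, hydrolases and ARTs, all of which were tested. With olaparib 17 were higher and 8 lower in BRCA1+/- rats, and 13 were higher and 12 lower in wild-type rats, none of them called. Tiparp, a mono-ADP-ribosyltransferase induced by the aryl hydrocarbon receptor, averaged 1.52 ± 0.79 in BRCA1+/- olaparib ovaries and 2.32 ± 0.64 in BRCA1+/- vehicle ovaries (SD, n = 4 each), with a difference of -0.80. Tiparp was also 1.18 higher in BRCA1+/- than in wild-type ovaries with vehicle (95% interval 0.18 to 2.19, limma unadjusted p = 0.0242, adjusted p = 0.861). Art3, an ecto-ADP-ribosyltransferase family member, averaged -0.23 ± 0.70 in BRCA1+/- olaparib and 0.33 ± 0.44 in BRCA1+/- vehicle ovaries, and 0.09 ± 0.83 in wild-type olaparib and -0.84 ± 0.32 in wild-type vehicle ovaries (SD, n = 4 each). Its interaction was -1.49 (95% interval -2.72 to -0.26, limma unadjusted p = 0.0212, adjusted p = 0.967). Adprh, which cleaves ADP-ribose from arginine, differed by -0.34 with olaparib in wild-type rats (95% interval -0.66 to -0.03) and Adprhl1 by 1.21 (-0.31 to 2.72). Adprhl1 was above background on 3 of the 4 wild-type vehicle arrays, and its difference of 1.90 between the genotypes with vehicle rests partly on dim signals. Oard1, a hydrolase of ADP-ribose on glutamate, differed by 0.39 with olaparib in BRCA1+/- rats. Art5 and Art4 differed by 0.72 and 0.66 between the genotypes with olaparib, with 95% intervals that include 0.

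Interferon-stimulated genes were set beside Parp9 and Parp14. Of 29 listed genes 28 were on the array and 27 were tested, and none had an unadjusted p under 0.05 in any of the 5 comparisons. With olaparib 16 were higher and 11 lower in BRCA1+/- rats, and 13 were higher and 14 lower in wild-type rats. Among the smallest unadjusted p-values were those of Stat2 and Bst2 in BRCA1+/- rats (differences 0.24 and 0.46) and of Mx2, Gbp5 and Cmpk2 in wild-type rats (0.41, 0.53 and 0.65). Bst2 (-0.64), Rsad2 (0.94) and Ifi44 (-0.38) were among the first for the genotypes with vehicle, and Ifi44l (0.48) and Ifit3 (0.99) with olaparib. Ifit3 was above background on 3 of the 4 arrays of each group, so its difference rests partly on dim signals. The score of the interferon list had a Pearson r of 0.30 with Parp9 (permutation p = 0.27, adjusted p = 0.62 over 90 relations). With Parp14 it was 0.41 (permutation p = 0.12, adjusted p = 0.46). These r were 0.73 and 0.75 on slide 1, and -0.0041 and 0.098 on slide 2. Without the 2 arrays farthest from the median score they were 0.03 and 0.15.

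For each member the named genes most like it across the 16 arrays, after group means were subtracted, were found among 15244. They were Nup133 and Agfg1 for Parp1 (r 0.94 and 0.93), Gprasp3 and Mms22l for Parp2 (0.96 and 0.96), and Dolk and Cthrc1 for Parp3 (0.88 and 0.87). Parp4 had Cndp2 and Arrdc2 (0.90 and 0.86), and Abcg1 came after Parp14 for Parp9 (0.87). The tankyrases had Zscan30 and LOC108350839 for Tnks (0.94 and 0.93) and Amotl1 and Tnni1 for Tnks2 (0.93 and 0.91). Parg had Acvr1b and Lonrf3 (0.92 and 0.89), and Macrod1 had Gpatch2 and Mag (0.94 and 0.89). These are the highest of many values over arrays that share slide, tissue makeup and scaling, and they are a description only.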

How the data were processed

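The arrays were scanned and quantified with Agilent Feature Extraction 10.7, per the submitters' processing notes. Its processed signal, an intensity, had background subtracted and trends removed within each array, per the file headers. The authors also deposited a table of log2 values. A column of it is the log2 of that intensity less a constant close to the array's 75th percentile (Pearson r 1.0 over probes printed once), so its scale and direction are known and genes were not centred; column medians lie between -4.24 and -3.62. These deposited log2 values were used as they are. Arrays differed in brightness, with a 75th percentile of intensity of 202 to 566, and had 55.5% to 60.7% of their probes well above background. The 16 arrays, 4 a group, limit the precision.

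Control spots and 12 probes with outlier flags were left out. The deposited log2 values hold a value for each probe (Parp1 had 10 spots an array). Spots of a probe were averaged here only for the alternatives computed from the scanner's intensities. Probes above background on at least 3 arrays of a group were kept (26808), and the probe with the highest mean stood for a gene. Other names came from accessions or symbols in a RefSeq table of GRCr8. A model with 4 group means was fitted with limma 3.58.1 in R 4.3.3 to all 16 arrays, with Benjamini-Hochberg adjustment over 20308 genes, and 5 comparisons were read from it. The test is two-sided; p-values measure the spread between animals or samples as the labels give them, and nothing else says that samples are separate animals. Exact permutation tests of 4 against 4 arrays are two-sided and cannot give a p below 0.0286. For the interaction, olaparib and vehicle labels were exchanged within each genotype, over 4900 arrangements. That permutation takes olaparib to have no effect in either genotype, so it is not an exact test of unequal effects. Correlations used two-sided permutation tests with 100000 resamples (numpy 2.4.6). A list score is the mean log2 value of a list's tested genes, each taken relative to its own average over the arrays, and a score of the oviduct list above 0 is called high. The fit was tested on simulated data with known changes.

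The members and gene lists were chosen with earlier results of these data known. Named beside the members are, for each comparison, the 3 genes of smallest p in the ADP-ribosylation and interferon lists, Brca1, and for each member the 2 genes of highest r. One gene that this rule names is not reported here. Alternatives were the scanner's processed intensity, background correction, quantile normalization, filters, the mean of a gene's probes, slide and replicate blocks, pairs of groups, and each replicate left out.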

Additional observations from a re-analysis of the deposited data

Results flagged for a closer look

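Of 40 sets of 4 arrays (10 genes in 4 groups), 3 held an array whose distance to the nearest of the other 3, divided by the range of the 4, exceeded the critical value of Dixon's test at 95%; chance gives about 1 in 20. Parp2 was 0.21 on BRCA1+/- vehicle array 3, against 0.96 to 0.99 on the other 3 arrays of the group, and this array also had the highest oviduct score (3.45) and the lowest proliferating cell score (-0.86). Parp4 was 2.77 on BRCA1+/- olaparib array 3, against 1.63 to 1.82 on the others, while probe 3 of this gene was at -7.76 there. Parg was -2.51 on wild-type vehicle array 3, against -2.11 to -2.10 on the others.

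The effect of olaparib on Macrod1 differed between the genotypes by -0.70 on the log2 scale. Exchanging olaparib and vehicle labels within each genotype gave a permutation p of 0.0229, which is not adjusted for the 10 genes examined. That permutation takes olaparib to have no effect in either genotype, so it is not an exact test of unequal effects. Limma's adjusted p over all genes was 0.967, so the difference was not called. Without the 6 arrays of high oviduct score the value was -0.28. That setting leaves only slide 1 arrays in both BRCA1+/- groups, and on slide 1 the value was -0.34.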

How the results depend on the processing

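No member was called in any comparison under any alternative. Over all genes, the count called was 0 in each of the 5 comparisons and stayed 0 under every alternative but 1: without wild-type olaparib replicate 4 it was 1 for olaparib against vehicle in BRCA1+/- rats (adjusted p = 0.048), so that leaving out single replicates gave 0 to 1 there. Of 50 member differences, the scanner's own scaling, normexp, both filters, the slide block and the replicate block reversed none. The replicate block moved no count of calls (0 in all 5 comparisons); same-numbered arrays of different groups had a median correlation of deviations of 0.21 (-0.44 to 0.71, 13 of 24 pairs over 0.1), so the numbers are not shown to pair the arrays.

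Quantile normalization gave 0.062 for the Parg interaction. The mean of all probes gave -0.62 for Parp4 with olaparib in BRCA1+/- rats and -0.14 for the Tnks2 interaction. Leaving out the 6 arrays of high oviduct score, an alternative added after seeing the data, reversed 13 of 50 differences. With olaparib in wild-type rats these were Parg (-0.11) and Tnks2 (0.0046). With olaparib in BRCA1+/- rats they were Macrod1 (0.0605), Parp9 (-0.25) and Parp14 (-0.23). For BRCA1+/- against wild-type it was Parp4 with vehicle (-0.13), and with olaparib Parg (0.37), Tnks (0.057), Parp9 (-0.21), Parp14 (-0.26) and Parp3 (-0.39). For the interaction they were Parg (0.39) and Tnks2 (-0.15). The cause was not tested, and this setting leaves 2 arrays in 3 of the groups. In both BRCA1+/- groups the arrays left are those of slide 1. Oviduct score and slide therefore cannot be told apart for olaparib in BRCA1+/- rats, nor in the BRCA1+/- part of the interaction.

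Leaving out each replicate in turn changed the sign of these differences, given as lowest and highest value. With olaparib in wild-type rats they were Parg (-0.058 to 0.40) and Tnks (-0.28 to 0.10). With olaparib in BRCA1+/- rats they were Parp4 (-0.17 to 0.22) and Tnks2 (-0.26 to 0.15). For BRCA1+/- against wild-type they were Parp4 with vehicle (-0.032 to 0.36), and with olaparib Parg (-0.32 to 0.14), Parp1 (-0.026 to 0.13), Parp9 (-0.0062 to 0.20) and Tnks2 (-0.18 to 0.13). For the interaction it was Parg (-0.25 to 0.22). Each of these ranges crosses 0, and that of Parg with olaparib in wild-type rats reaches 0.40. The Macrod1 interaction ranged from -0.82 to -0.54 and Tnks with olaparib in BRCA1+/- rats from -0.70 to -0.43.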
